A study of Mus musculus with 12 samples.

Results

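A set of 36 genes of glucose use, nutrient transport and growth control was followed in chromatin accessibility maps of mouse splenic natural killer (NK) cells. A region belonged to this gene set when its nearest protein-coding gene body, within 50 kb, was that of a member. Of 45082 regions in all, 163 were assigned in this way to the 36 genes, out of 21887 protein-coding genes in the gene table. Every member received at least 1 region. The number per gene ran from 1 to 21, with a median of 3, and 8 genes had a single region. If the nearest gene is ignored, 318 regions lie within 50 kb of a member's body. Of the 163, 5 were equally near another gene and were settled by the nearer gene end.

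ATAC-seq measures open chromatin with a transposase that cuts accessible DNA and adds sequencing adapters. The study compared NK cells with the gene for Regnase-1 intact (Reg-1fl/fl, labelled WT) and deleted (Reg-1ΔNK, labelled KO), each kept as control or treated with IL-12/18, with 3 libraries in each of the 4 groups. Regnase-1, encoded by Zc3h12a, is an endonuclease that degrades messenger RNAs of inflammatory genes, and IL-12 and IL-18 are cytokines that activate NK cells. The Cre driver, the age and sex of the mice, and the dose and duration of the cytokines are not given in the sources used here. The labels do not say whether the 3 libraries of a group came from separate animals, so p-values measure the spread between these libraries, which may be technical.

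Resting NK cells take up little glucose. On activation by cytokines they raise glucose uptake and glycolysis and import amino acids through transporters such as the Slc7a5 and Slc3a2 pair. For this they depend on the kinase complex mTORC1 and on the sterol factors encoded by Srebf1 and Srebf2. Hif1a, a further member, encodes a hypoxia factor. Glycolysis splits glucose into pyruvate, which lactate dehydrogenase can turn into lactate for export through the monocarboxylate carriers. A region of open chromatin near such a gene is a position where regulatory proteins may bind. It is not a measure of the gene's transcript.

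The deposited lists held 35110 to 63128 distinct intervals, so each library was reduced to its 35110 strongest by deposited -log10 q, and a region was "called" in a library when 1 of those intervals overlapped it. Read depth is unknown. The weakest interval kept had a -log10 q of 1.31 in KO IL-12/18 replicate 1 and 27.1 in WT IL-12/18 replicate 3, so the reduced lists differ in stringency. KO IL-12/18 replicate 1 stood apart: over the regions called in all 12 libraries its ranks correlated at 0.807 to 0.817 with the other libraries of its group, whereas every other library reached 0.95 or more with at least 1 library of its own group. Of the NK marker genes, 8 of 8 had a region in or over the gene body that was called in all 12 libraries, against 1 of 4 B cell, 2 of 6 T cell, 1 of 5 myeloid and 2 of 4 erythroid markers, and no listed gene start of these other cell types was called in all 12. A Zc3h12a region (mm10, chr4:125117670-125118634) held a deposited interval in 6 of 6 WT and 0 of 6 KO libraries, at deposited folds of 2.56 to 4.33. A stronger region of the gene (chr4:125121945-125128930) held one in all 6 WT and all 6 KO libraries, at folds of 62.5 to 138.

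The number of called member regions was nearly the same in every group. It was 124, 126 and 127 in WT control, 131, 129 and 133 in WT IL-12/18, 124, 123 and 124 in KO control and 121, 127 and 128 in KO IL-12/18. The WT stimulated libraries all lay above the WT controls, and the KO groups overlapped. Group means were 126 ± 1.53 (SD, n = 3), 131 ± 2, 124 ± 0.577 and 125 ± 3.79 regions, so the stimulated libraries held 3.5 more regions on average. Over the whole genome the same reduced lists called 33511 ± 544, 33921 ± 280, 33439 ± 157 and 32378 ± 1251 regions. The member counts were not tested against these totals. With every deposited interval counted, the numbers followed the list lengths, with 163 ± 14.5 regions in WT control, 205 ± 13.2 in WT IL-12/18, 168 ± 8.72 in KO control and 158 ± 33.5 in KO IL-12/18. These groups held 48095 ± 5464, 58236 ± 4285, 50910 ± 3432 and 43985 ± 9678 intervals in all.

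The starts of these genes were open in almost every library. RefSeq lists a transcription start for 33 members, and 30 of these had a start inside a region called in all 12 libraries. The listed starts of Eno2, an enolase best known from neurons, and Ldhb, a lactate dehydrogenase subunit, were called in 6 libraries each. The listed start of Hk3, a hexokinase of myeloid cells, was called in none, although a region within 1 kb of its gene start was called in all 12.

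Promoter letters were read for the 49 listed promoters of members, each 250 bases before to 50 after the start (RefSeq, GRCm38.p6, the assembly behind mm10). The core of the hypoxia response element, ACGTG or GCGTG on either strand, occurred in 35 of them (71.4%), from 27 genes, against 43.8% of all 32851 promoters of the same length. ACGTG alone was found in 44.9% of member promoters and 19.6% of all, and GCGTG alone in 46.9% and 32.4%. The E-box CACGTG, which contains ACGTG on both strands, was found in 12.2% and 7.15%. The sterol element TCACNCCAC was in 2 of the 49, or 4.08%, against 1.24%. Member promoters were also richer in G and C, with a median of 61.3% against 52.7%, and these motif shares were not adjusted for it. A match is a description of the letters and not evidence of binding. The 4 promoters printed here belong to the members with a single listed promoter inside a start region whose rank changed with stimulation. Each is the 250 bases before the start, 5′ to 3′ on the gene's own strand, with the hypoxia cores of either strand in capitals.
Slc2a1 promoter (chr4:119108495-119108744, plus strand): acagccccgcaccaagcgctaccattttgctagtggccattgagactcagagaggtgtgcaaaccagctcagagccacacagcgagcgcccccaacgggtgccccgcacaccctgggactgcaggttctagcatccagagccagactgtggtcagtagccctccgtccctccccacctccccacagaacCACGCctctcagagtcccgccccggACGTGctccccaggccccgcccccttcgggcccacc
Hk2 promoter (chr6:82774455-82774704, minus strand): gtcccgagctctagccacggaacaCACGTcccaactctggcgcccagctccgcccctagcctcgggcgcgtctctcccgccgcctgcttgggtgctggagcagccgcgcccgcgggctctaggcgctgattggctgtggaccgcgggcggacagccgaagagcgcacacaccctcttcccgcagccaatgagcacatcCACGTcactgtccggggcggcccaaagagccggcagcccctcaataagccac
Slc3a2 promoter (chr19:8713898-8714147, minus strand): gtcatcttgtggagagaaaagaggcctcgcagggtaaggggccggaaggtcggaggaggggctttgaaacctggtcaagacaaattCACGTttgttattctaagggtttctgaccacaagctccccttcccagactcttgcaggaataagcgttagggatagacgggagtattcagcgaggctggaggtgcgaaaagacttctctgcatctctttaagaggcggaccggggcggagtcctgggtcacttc
Srebf2 promoter (chr15:82147019-82147268, plus strand): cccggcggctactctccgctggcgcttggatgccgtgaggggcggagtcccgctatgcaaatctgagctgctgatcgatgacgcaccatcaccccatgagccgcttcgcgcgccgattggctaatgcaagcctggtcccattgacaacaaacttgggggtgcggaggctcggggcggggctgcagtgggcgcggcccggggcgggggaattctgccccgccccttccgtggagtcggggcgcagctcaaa
The first pair, before the glucose transporter Slc2a1 and the hexokinase Hk2, hold 2 cores each. Slc3a2, the heavy chain of amino acid transporters, has 1, and Srebf2, the sterol factor, has none in these bases. The start regions of Slc2a1, Hk2 and Slc3a2 rose in rank with IL-12/18 and that of Srebf2 fell. Among start regions not printed, those of Eno1 and Hk3 also rose, and 1 each of Pfkm, Aldoc, Pdk1 and Srebf1 fell. Whether cores go with the direction of change was not tested.

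IL-12/18 changed the accessibility of individual regions in both directions. Regions called in some libraries only were compared by an exact conditional permutation test of the number of libraries with a call, stratified by genotype, with Benjamini-Hochberg adjustment over all 8834 testable regions. This test has 400 rearrangements and a smallest p of 0.005. Of the 32 testable member regions, 12 (37.5%) were called more often with IL-12/18, where the share over all testable regions was 33.8%, and 5 (15.6%) less often, where it was 25.9%. Regions called in all 12 libraries were compared by rank: within each library the 21089 such regions were ordered by deposited -log10 q, turned into normal scores and tested with limma. The rank is given below as a percentile, with 100 for the strongest region of a library, and the difference in normal-score units. Distances in kb are counted from the upstream end of the gene body. A start region is one within 1 kb of a listed start, which at some genes, such as Slc3a2 and Hif1a, lies inside the body. Of the 80 member regions ranked, 19 (23.8%) rose with stimulation against 20.1% of all ranked regions, and 15 (18.8%) fell against 22.1%. The median difference was 0.03 over the members and -0.07 over all ranked regions. All 4 shares of the members lie near or, for less frequent calls, below those of the genome as a whole. Call counts of single members or groups of members are given below beside the shares over all testable regions. The numbers testable in each are not given, so such a count is not a result about that gene or group.

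Counted within 1 genotype and without a test, 13 member regions (7.98%) were called in 3 of 3 WT stimulated and 0 of 3 WT control libraries, against 9.42% of all regions. In the opposite direction 10 did so (6.13%, against 6.42%). In KO cells 9 regions were gained (5.52%, against 5.19%) and 5 were lost (3.07%, against 4.65%). In the call test 17 regions of 9 genes passed and in the rank test 34 regions of 18 genes, together 51 regions of 20 genes. Of the 34, 31 had no overlap between WT stimulated and WT control libraries and 18 had none in either genotype. The 34 had been selected for a treatment difference in these same libraries, which favours such separation. Matching counts over all ranked regions that passed are not given, so the 31 and 18 are not a result about the members.

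**Figure D1:**
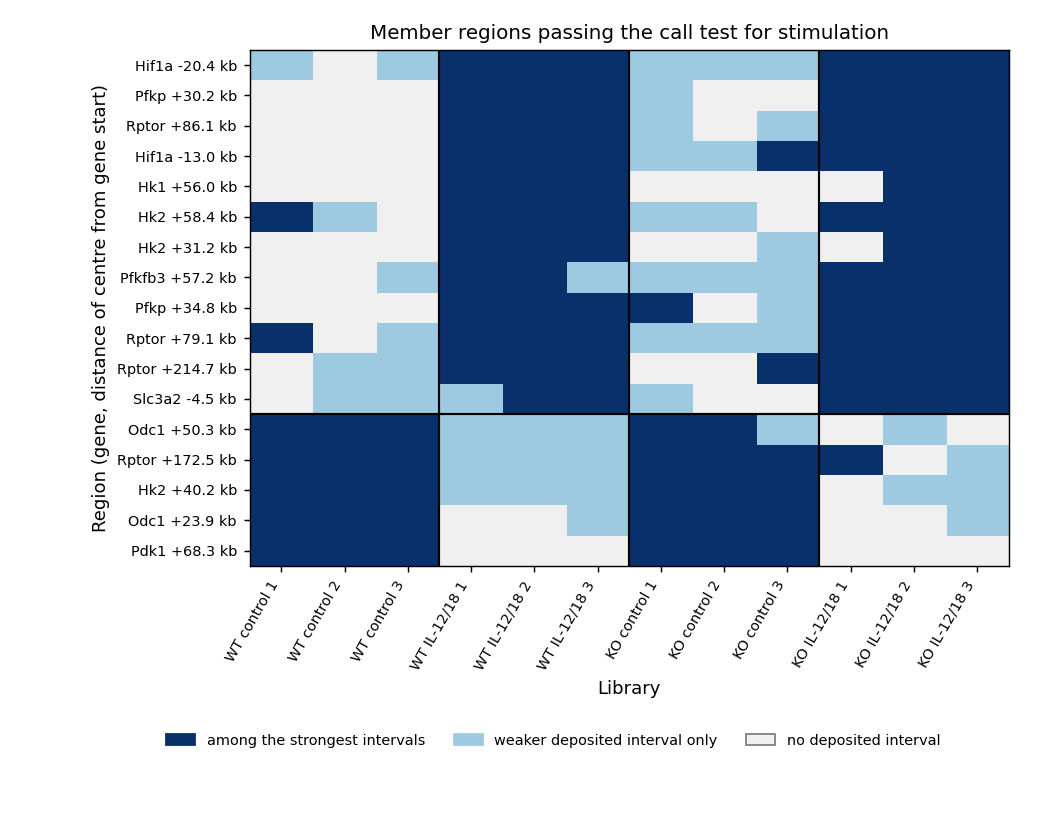
Call state of the 17 member regions that passed the call test for stimulation (rows, named by gene and distance of the region's centre from the gene start) in the 12 libraries (columns). Dark blue marks an interval among the 35110 strongest of that library, light blue a weaker deposited interval only and grey no deposited interval. The upper 12 rows are mostly dark in stimulated libraries and the lower 5 in control libraries, and light blue cells stand in the opposite treatment in many rows.

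The plot of call states also shows what a missing call is. Of the 12 regions called more often with IL-12/18, 11 held a weaker deposited interval in at least 1 of the 6 control libraries and 1, in Hk1, held none. Of the 5 called less often, 4 held a weaker interval in some stimulated library and 1, beyond Pdk1, held none. When every deposited interval was counted as a call, 1 of 35 testable member regions passed, the one beyond Pdk1, against 12.4% of all testable regions. With a -log10 q of at least 5 required, 3 of 34 passed, against 13.3%. The calls therefore describe which regions were among the strongest of a library. All 17 stayed past the threshold when any single library was left out.

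Several regions of the glucose transporter genes rose in rank. Slc2a1 encodes GLUT1, the main carrier of activated lymphocytes, and Slc2a3 encodes GLUT3, a carrier of high affinity. Of their 12 regions, 8 were called in all 12 libraries, 4 of these rose with stimulation and none fell past the threshold, against 20.1% and 22.1% of all ranked regions. The other 4 did not pass, and the pair was not tested as a group. The Slc2a1 region inside the gene, 17.6 kb from the start (chr4:119124485-119128204), stood at percentile 66.3, 60.4 and 67.4 in WT control and at 90.5, 88.4 and 92.2 in WT IL-12/18. In KO cells it stood at 51.7, 51.2 and 55.3 in control and at 94.8, 85.2 and 86.8 after stimulation. No control library reached the lowest stimulated one, and the difference was 1.06 ± 0.10 (SE; limma, adjusted p = 1.06e-06). The start region of Slc2a1 moved less, in WT from percentile 85.5 ± 1.5 to 91.6 ± 0.72 and in KO from 89.2 ± 0.556 to 90.9 ± 1.22 (difference 0.21 ± 0.06, adjusted p = 0.0121).

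At Slc2a3 both changed regions lie at the upper end of the gene by coordinate, whose strand is not listed. The region 1.69 kb outside the body (chr6:122804052-122805433) rose in WT from percentile 17.6 ± 9.37 to 40.4 ± 2.44 and in KO from 16.8 ± 6.58 to 46.2 ± 3.02 (0.81 ± 0.13, limma, adjusted p = 0.000203). Its neighbour inside the body (chr6:122800616-122802429) rose by 0.38 ± 0.10 (adjusted p = 0.00819). In both genotypes the libraries of the outer region did not overlap between treatments.

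**Figure D2:**
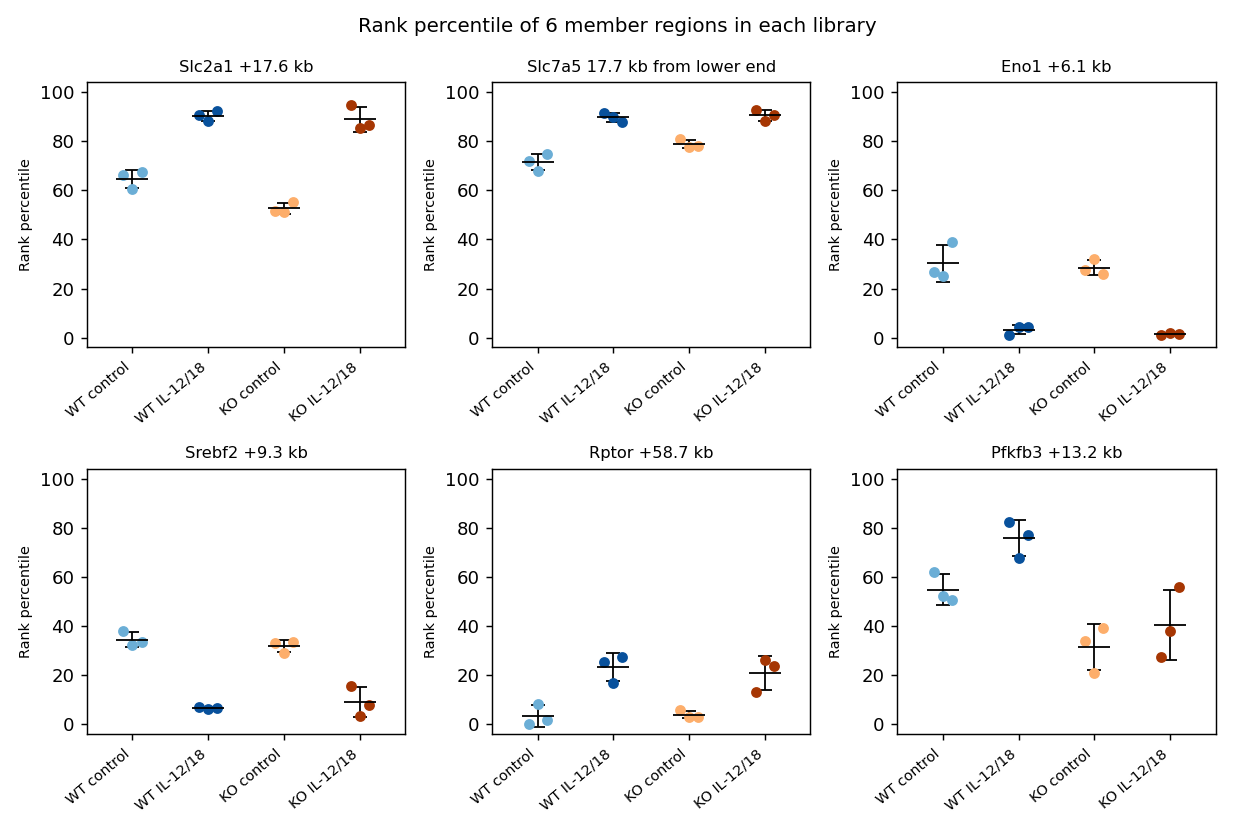
Rank percentile (0 to 100, 100 being the strongest region of a library) of 6 member regions in each of the 12 libraries, grouped by genotype and treatment. Points are libraries and black bars the mean ± SD of 3. Slc2a1, Slc7a5 and Rptor regions are higher in both stimulated groups, Eno1 and Srebf2 regions lower, and the Pfkfb3 region is lower in KO than in WT under both treatments. Each was picked as the ranked region of its gene with the largest rise or fall, for Pfkfb3 between genotypes. That choice favours the separation shown.

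Hk2, the inducible hexokinase that phosphorylates glucose on entry, had the second largest number of regions, 15. Only 2 of these were called in all 12 libraries and both rose, against 20.1% of all ranked regions. The region 34.0 kb into the gene (chr6:82739553-82741331) stood at percentile 32.6, 34.6 and 31.5 in WT control and 57.8, 44.4 and 52.0 in WT IL-12/18, and at 35.9, 35.4 and 21.0 in KO control and 48.8, 51.1 and 48.1 in KO IL-12/18. The treatments did not overlap in either genotype (0.49 ± 0.10, limma, adjusted p = 0.000964). The start region rose by 0.27 ± 0.09 (adjusted p = 0.0269), a call lost when any of 6 single libraries was left out (WT control 1 or 3, WT IL-12/18 1, KO control 1 or 3, KO IL-12/18 2), with an adjusted p of up to 0.0723.

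The other Hk2 changes were in calls, 2 gained and 1 lost, where the shares over all testable regions were 33.8% and 25.9%. A region at 31.2 kb (chr6:82742531-82743882) was called in 0 of 6 control and 5 of 6 stimulated libraries, the exception being KO IL-12/18 replicate 1, and one at 58.4 kb, beyond the gene (chr6:82715654-82716430), in 1 and 6 (exact test, adjusted p = 0.0335 each). Between them, the region at 40.2 kb (chr6:82733484-82734992) was called in all 6 control libraries and no stimulated one (adjusted p = 0.0169), with weaker intervals in 5 stimulated libraries. Neighbouring regions in and beyond the same gene thus changed in opposite directions. With the reduced lists, of equal length, Hk2 had 7.67 ± 0.577 called regions in WT control and 9.33 ± 0.577 in WT IL-12/18. In KO it had 7.33 ± 0.577 in control and 9.67 ± 0.577 after stimulation. With every deposited interval counted, Hk2 had 12.7 ± 1.15 regions in WT control and 23.3 ± 0.577 in WT IL-12/18. In KO these counts were 15.0 ± 1.0 and 15.0 ± 7.21. The full lists held 48095 and 58236 intervals on average in WT control and stimulated, and 50910 and 43985 in KO. Counts from full lists were not adjusted for list length, so they are not a result about the gene.

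Hk1, the constitutive hexokinase, gained 1 region 56.0 kb into the gene (chr10:62323729-62324144), called in all 3 WT and 2 of 3 KO stimulated libraries and in no control (exact test, adjusted p = 0.0335). KO IL-12/18 replicate 1 held no deposited interval there. At Hk3 the regions moved apart. The one inside the gene at 3.2 kb (chr13:55017123-55019416) was at percentile 53.0, 42.6 and 36.3 in WT control and 3.71, 6.44 and 6.97 in WT IL-12/18, but at 19.2, 26.7 and 13.2 in KO control and 15.5, 10.8 and 3.42 in KO IL-12/18. The WT treatments were far apart and the KO treatments overlapped. Over both genotypes the difference was -0.96 ± 0.16 (limma, adjusted p = 0.000186). The region at the Hk3 start rose, in WT from percentile 16.8 ± 1.54 to 28.8 ± 2.59 and in KO from 6.24 ± 2.51 to 30.3 ± 8.39 (0.72 ± 0.12, adjusted p = 0.000195).

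The phosphofructokinases commit fructose 6-phosphate to glycolysis, and their isoforms were not tested against each other. Pfkp, the platelet isoform, had 8 regions, of which 3 gained. Of its 3 ranked regions 1 rose, against 20.1% of all ranked regions. In the call test 2 were gained, where the share over all testable regions was 33.8%. Those at 30.2 kb (chr13:6618357-6619291) and 34.8 kb (chr13:6613885-6614574) were called in all 6 stimulated libraries and in 0 and 1 of the 6 controls (exact test, adjusted p = 0.0169 and 0.0335). The region at 14.7 kb rose in WT from percentile 50.3 ± 6.64 to 63.3 ± 2.0 and in KO from 51.5 ± 6.35 to 66.8 ± 9.81 (0.37 ± 0.10, limma, adjusted p = 0.00865). Of the 2 regions of Pfkm, the muscle isoform, 1 near its start fell by 0.45 ± 0.17 on the normal-score scale (adjusted p = 0.0441). That call was lost when any single library other than WT control 1, KO control 2 or KO IL-12/18 1 was left out, with an adjusted p of up to 0.106. Neither region of Pfkl, the liver isoform, passed a test.

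Pfkfb3 makes fructose 2,6-bisphosphate, the strongest activator of phosphofructokinase, and 5 of its 10 regions changed with stimulation. Of its 7 ranked regions 2 rose and 2 fell, against 20.1% and 22.1% of all ranked regions. In the call test 1 was gained, where the share over all testable regions was 33.8%. The region at 124.3 kb, beyond the gene (chr2:11429310-11430255), rose by 0.65 ± 0.14 (limma, adjusted p = 0.00179), and that at 13.2 kb by 0.42 ± 0.13 (adjusted p = 0.0231). The regions at 18.6 kb and 23.7 kb fell by 0.37 ± 0.12 and 0.33 ± 0.09 (adjusted p = 0.0263 and 0.00661). Opposite changes thus stood side by side inside the gene. Another, at 57.2 kb (chr2:11496539-11497172), was called in 5 stimulated libraries and no control (exact test, adjusted p = 0.0335). The calls at 13.2 and 18.6 kb were each lost without any of 5 libraries, with an adjusted p of up to 0.0679 and 0.0682. For the first these were WT control 2 or 3, WT IL-12/18 1, KO control 2 and KO IL-12/18 3, and for the second WT control 1 or 2, WT IL-12/18 2 or 3 and KO control 1. Pfkfb4, a related enzyme, had 4 regions and no change that passed.

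Among the remaining enzymes the largest fall of any ranked member region was inside Eno1, which encodes the enolase of most tissues. The region 6.1 kb from its start (chr4:150242209-150243425) stood at percentile 26.7, 25.0 and 39.0 in WT control and at 1.08, 4.45 and 4.43 in WT IL-12/18. In KO it went from 27.5, 31.9 and 26.0 to 1.03, 2.08 and 1.43. No control library came near a stimulated one (-1.49 ± 0.15, limma, adjusted p = 2.8e-06). The Eno1 start region moved the other way, in WT from percentile 89.0 ± 1.23 to 93.9 ± 0.649 and in KO from 88.7 ± 1.34 to 92.5 ± 4.02 (0.29 ± 0.09, adjusted p = 0.0189).

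The start region of Aldoc, an aldolase, fell by 0.46 ± 0.17 (limma, adjusted p = 0.0465). That call was lost when any library outside KO IL-12/18 was left out, with an adjusted p of up to 0.106. The other glycolytic enzymes had no region that passed a test: Gpi1 (glucose 6-phosphate isomerase), Aldoa (aldolase), Tpi1 (triose phosphate isomerase), Gapdh and Pgk1 with 1 region each, Pgam1 (phosphoglycerate mutase) and Eno2 with 2, and Pkm (pyruvate kinase) with 4. At Tpi1 the percentile was 5.96 in KO IL-12/18 replicate 1 and between 36.1 and 55.1 in the other 11 libraries.

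**Figure D3:**
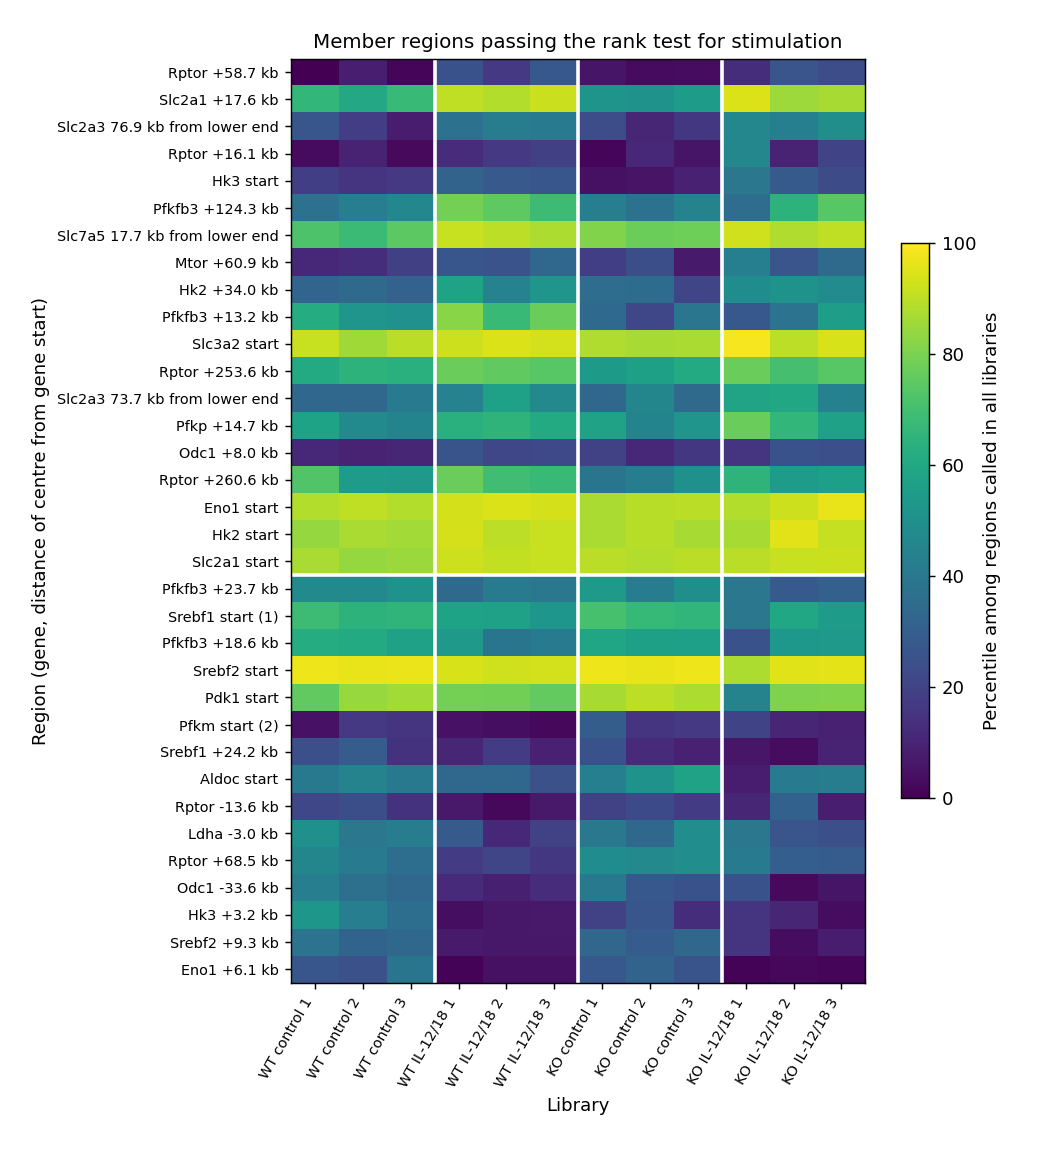
Rank percentile (colour, 0 to 100) of the 34 member regions that passed the rank test for stimulation, in each of the 12 libraries. Rows run from the largest rise (Rptor, 58.7 kb from its start) to the largest fall (Eno1, 6.1 kb), and the white horizontal line divides the 19 that rose from the 15 that fell.

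Of the 16 regions of the genes of lactate and pyruvate handling, 8 were ranked. Of these 2 fell, against 22.1% of all ranked regions, and none rose past the threshold, against 20.1%. In the call test 1 region was called less often, where the share over all testable regions was 25.9%. Ldha, the lactate dehydrogenase subunit of activated lymphocytes, had 3 regions. The region at -3.0 kb (chr7:46838497-46840082) fell in WT from percentile 44.1 ± 5.51 to 19.8 ± 8.68 and in KO from 40.9 ± 7.69 to 30.1 ± 8.22 (-0.51 ± 0.13, limma, adjusted p = 0.0046). Pdk1 encodes a kinase that holds pyruvate dehydrogenase inactive. A region 68.3 kb from its start and 37.3 kb beyond its body (chr2:71941197-71941923) was called in 6 of 6 control and 0 of 6 stimulated libraries (exact test, adjusted p = 0.0169), and no stimulated library held a deposited interval there of any strength. The Pdk1 start fell by 0.41 ± 0.15 (adjusted p = 0.0373). There KO IL-12/18 replicate 1 stood at percentile 44.6 and the other 11 libraries at 75.8 or above. That call was lost without any 1 of 8 libraries (all but WT control 1 and the KO IL-12/18 libraries), with an adjusted p of up to 0.0879. The lactate carriers Slc16a1, with 6 regions, and Slc16a3, with 3, and Ldhb, with 2, had no region that passed for stimulation.

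Hif1a encodes the oxygen-regulated factor that drives glycolytic genes. Its start region, centred 6.8 kb inside the gene body, was called in all 12 libraries and did not pass the test. Upstream of the body 2 regions were called more often with IL-12/18, where the share over all testable regions was 33.8%. The region at -20.4 kb (chr12:73879899-73881897) was called in all 6 stimulated libraries and in no control (exact test, adjusted p = 0.0169). At -13.0 kb (chr12:73887641-73888908) the call was in 6 stimulated libraries and 1 KO control (adjusted p = 0.0335). The authors' deposited folds there were 49.5, 39.7 and 45.3 in WT IL-12/18 and 22.8, 29.3 and 41.9 in KO IL-12/18. No WT control library had an interval, and the KO control libraries had 2.86, 4.27 and 6.06. These folds are each relative to the background of their own library. Called Hif1a regions numbered 1.0 ± 0 in WT control, 3.67 ± 0.577 in WT IL-12/18, 2.0 ± 0 in KO control and 4.33 ± 0.577 in KO IL-12/18.

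The amino acid transporters Slc7a5 and Slc3a2, which together form the large neutral amino acid carrier, each had a region that rose. This was 1 of 2 ranked regions at Slc7a5 and 1 of 4 at Slc3a2, against 20.1% of all ranked regions. In the call test 1 Slc3a2 region was gained, where the share over all testable regions was 33.8%. The pair was not tested as a group. In a region inside Slc7a5 (chr8:121897700-121899937; strand not listed), the percentile was 72.0, 68.0 and 74.7 in WT control and 91.6, 89.9 and 87.7 in WT IL-12/18. In KO it was 80.9, 77.7 and 78.0 in control and 92.8, 88.2 and 90.6 after stimulation. The treatments were apart in both genotypes (0.61 ± 0.07, limma, adjusted p = 1.25e-05). At Slc3a2 the region over the listed start (chr19:8711442-8714803), centred 10.2 kb inside the gene body, rose by 0.41 ± 0.13 (limma, adjusted p = 0.0184). Without WT control replicate 2 the rise was 0.37 with an adjusted p of 0.0511. The region over the upstream end of the body (chr19:8722174-8725284) did not pass (0.11 ± 0.11, limma, adjusted p = 0.455). A region at -4.5 kb, counted from that end of the body (chr19:8726604-8729066), was called in 5 stimulated libraries and no control (exact test, adjusted p = 0.0335). Slc1a5, a glutamine carrier, with 1 region, and Slc7a1, a cationic amino acid carrier, with 5, had none that passed.

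Odc1 encodes ornithine decarboxylase, the first enzyme of polyamine synthesis, and most of its changes were losses outside the gene. Of its 3 ranked regions 1 rose and 1 fell, against 20.1% and 22.1% of all ranked regions. In the call test 2 were lost, where the share over all testable regions was 25.9%. Of 9 regions, those at 23.9 kb (chr12:17568251-17569064) and 50.3 kb (chr12:17594817-17595382) were called in 6 and 5 control libraries and in no stimulated one (exact test, adjusted p = 0.0169 and 0.0335). The region at -33.6 kb (chr12:17510544-17511790) fell in WT from percentile 37.7 ± 4.66 to 11.3 ± 2.05 and in KO from 31.1 ± 8.28 to 11.3 ± 12.2 (-0.89 ± 0.18, limma, adjusted p = 0.00105). A region over the end of the gene, centred at 8.0 kb, rose by 0.36 ± 0.11 (adjusted p = 0.0171), or by 0.31 with an adjusted p of 0.0524 without KO control replicate 2. The number of called Odc1 regions per library went in WT from 7.67 ± 0.577 to 5.33 ± 1.15 and in KO from 7.33 ± 0.577 to 5.33 ± 0.577.

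Of the 10 regions of Srebf1 and Srebf2, 7 were ranked. Of these 4 fell and none rose past the threshold, against 22.1% and 20.1% of all ranked regions, and the pair was not tested as a group. Inside Srebf2, 9.3 kb from the start (chr15:82155893-82157185), the percentile was 38.0, 32.2 and 33.5 in WT control and 7.28, 6.44 and 6.56 in WT IL-12/18, and in KO it went from 33.0, 29.2 and 33.7 to 15.5, 3.47 and 7.86. Stimulated libraries lay below all controls (-1.02 ± 0.13, limma, adjusted p = 2.48e-05). The Srebf2 start region, among the strongest of the genome, went in WT from percentile 97.0 ± 0.428 to 93.3 ± 0.712 and in KO from 97.2 ± 0.598 to 93.0 ± 4.48 (-0.39 ± 0.09, adjusted p = 0.00405). At Srebf1 a start region fell by 0.35 ± 0.09 (adjusted p = 0.00578) and the region at 24.2 kb by 0.45 ± 0.16 (adjusted p = 0.0355). The second of these calls was lost without any 1 of 6 libraries (WT control 1 or 2, WT IL-12/18 1 or 3, KO control 1, KO IL-12/18 2), with an adjusted p of up to 0.0886.

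Of the mTORC1 genes, Rptor, which encodes the scaffold Raptor, carried the most regions of any member, 21 along a gene of 296.7 kb. With stimulation 7 of them gained and 3 lost. Of its 8 ranked regions 4 rose and 2 fell, against 20.1% and 22.1% of all ranked regions. In the call test 3 were gained and 1 lost, where the shares over all testable regions were 33.8% and 25.9%. The gene was not tested as a group. Those called more often lay at 79.1, 86.1 and 214.7 kb (chr11:119680989-119683097, chr11:119688377-119689549 and chr11:119816972-119818226), each in all 6 stimulated libraries and in 1, 0 and 1 of the 6 controls. The exact test gave adjusted p = 0.0335, 0.0169 and 0.0335. The region at 172.5 kb (chr11:119774942-119775792) was called in 6 control and 1 stimulated library, KO IL-12/18 replicate 1 (adjusted p = 0.0335).

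By rank, the Rptor region at 58.7 kb (chr11:119661054-119662154) had the largest rise of any ranked member region. It stood at percentile 0.178, 8.41 and 1.71 in WT control, 25.2, 16.7 and 27.6 in WT IL-12/18, 5.71, 2.97 and 3.19 in KO control and 13.1, 26.3 and 23.8 in KO IL-12/18. It was a weak region everywhere and stronger in every stimulated library than in any control (1.17 ± 0.22, limma, adjusted p = 0.000704). Its neighbour at 68.5 kb fell by 0.53 ± 0.09 (adjusted p = 0.000271). Rises also passed at 16.1 kb (0.80 ± 0.22, adjusted p = 0.00841), 253.6 kb (0.41 ± 0.07, adjusted p = 0.000214) and 260.6 kb (0.34 ± 0.10, adjusted p = 0.0173), and a fall at -13.6 kb (-0.51 ± 0.17, adjusted p = 0.0261). The call at 260.6 kb was lost without WT control 2 or 3 or WT IL-12/18 1 (adjusted p up to 0.0518), and that at -13.6 kb without WT control 2, WT IL-12/18 2, KO control 2 or KO IL-12/18 3 (adjusted p up to 0.0737).

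**Figure D4:**
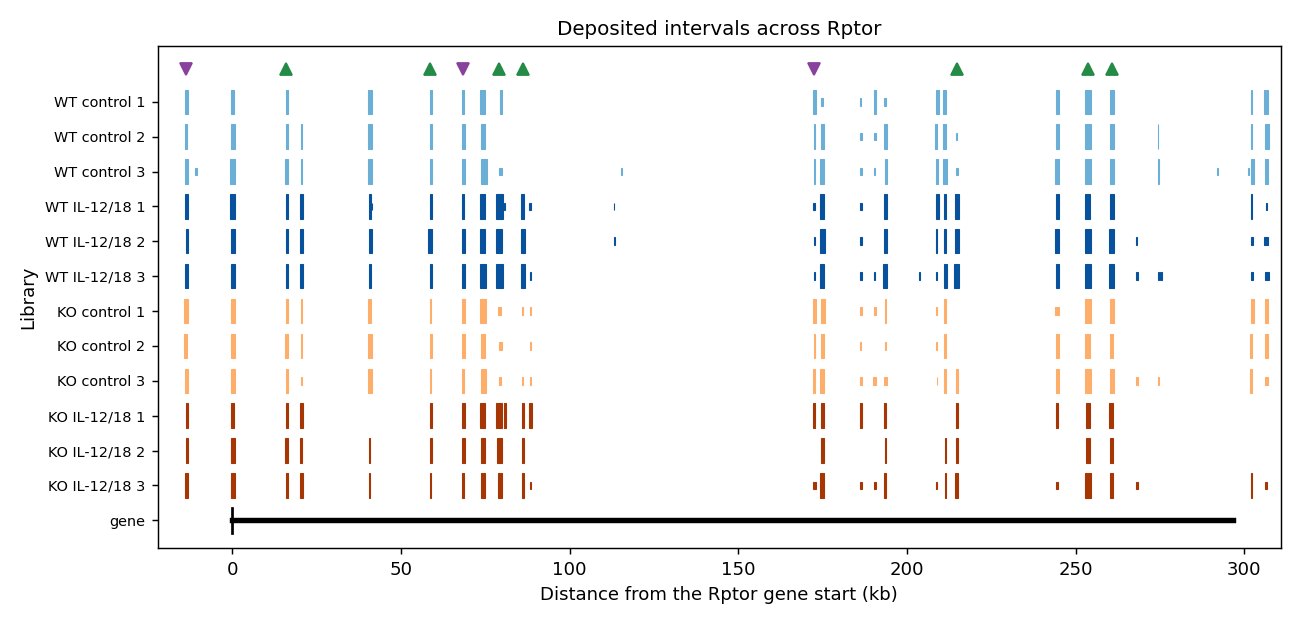
Deposited intervals along Rptor in the 12 libraries, by distance from the gene start in kb. Tall bars are intervals among the 35110 strongest of a library, short bars weaker ones, and the black line is the gene. Green triangles mark the 7 regions that gained with stimulation and purple triangles the 3 that lost, with gains and losses side by side between 58.7 and 86.1 kb.

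Mtor, the kinase itself, had 2 regions, and the one at 60.9 kb (chr4:148508968-148510071) rose in WT from percentile 14.6 ± 3.94 to 28.8 ± 4.27 and in KO from 16.6 ± 8.41 to 34.6 ± 8.37 (0.56 ± 0.14, limma, adjusted p = 0.00467). Rheb, the small GTPase that activates mTORC1, had 1 region, which did not pass.

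The median change was smaller at gene starts than inside gene bodies. The 34 ranked regions within 1 kb of a gene start had a median absolute difference of 0.16, and the 37 inside gene bodies 0.37. At starts 5 rose and 5 fell, and inside bodies 12 rose and 7 fell. Of all ranked regions, at any position, 20.1% rose and 22.1% fell. Upstream, 3 of 5 ranked regions changed and all 3 fell, whereas the 3 changed calls of 6 testable, at Hif1a and Slc3a2, were gains. None of the 17 changed calls lay at a gene start, where 1 of 36 regions was testable. These counts are a description, with no test between positions. Matching values over all regions by position are not given, so neither the counts nor the medians are a result about the members. Starts were also wider (median 2548 bp against 1296 bp inside bodies).

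**Figure D5:**
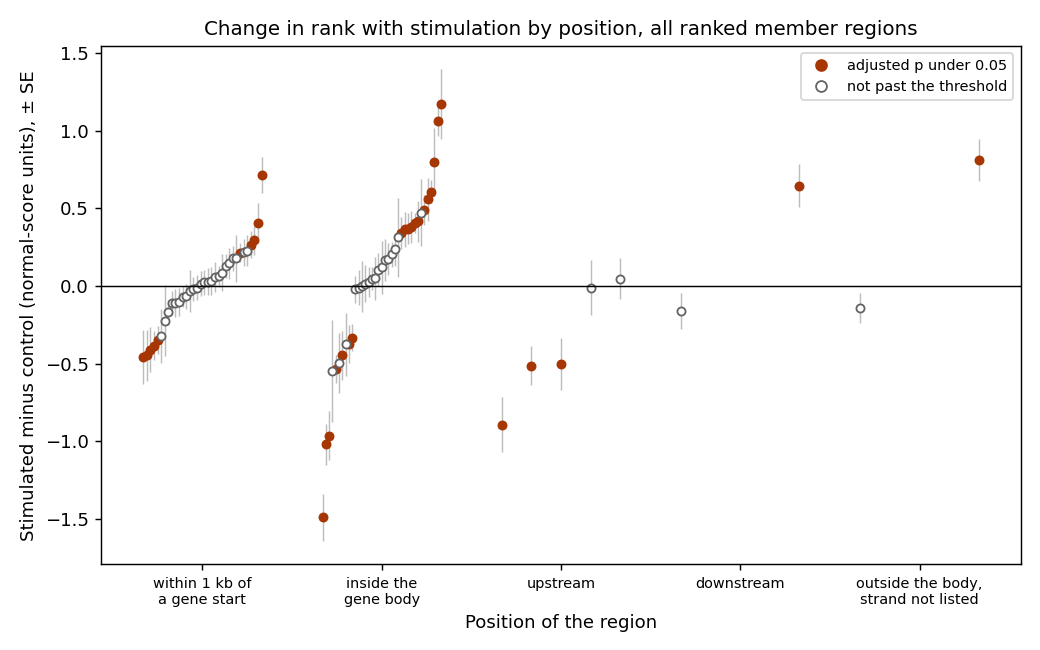
Stimulated minus control rank difference (normal-score units, ± SE) of the 80 ranked member regions, by position relative to the gene. Filled points passed at adjusted p under 0.05 and open points did not. Most start regions lie close to 0, and the regions inside gene bodies spread from -1.49 to 1.17.

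Few member regions differed between KO and WT cells. In the call test 0 of 5 testable member regions passed, where the share over all 1817 testable regions was 0%, and the smallest adjusted p was 0.147. At an unadjusted p under 0.05 there was 1, a Rptor region at 208.8 kb (chr11:119811079-119812319), called in 5 of 6 WT and 0 of 6 KO libraries (exact test, unadjusted p = 0.02), with weaker intervals in 4 KO libraries. By rank, 0 of 80 rose in KO against 1.77% of all ranked regions, and 2 (2.5%) fell against 2.53%. At an unadjusted p under 0.05 there were 7 of the 80. Shares over all regions at this unadjusted threshold are not given, so neither this count nor the 1 above is a result about the members. The median KO minus WT difference was 0.02 over the members and 0.01 over all ranked regions.

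The clearer of the pair was the Pfkfb3 region at 13.2 kb (chr2:11540159-11541599). It stood at percentile 62.0, 52.2 and 50.5 in WT control and 34.1, 21.1 and 39.3 in KO control, and at 82.3, 67.9 and 77.2 in WT IL-12/18 and 27.6, 38.0 and 55.8 in KO IL-12/18. WT and KO did not overlap under either treatment (-0.79 ± 0.13, limma, adjusted p = 0.00581), and the call held without each library in turn. The other was a Slc16a1 region at 31.8 kb, 11.6 kb beyond the gene (chr3:104670028-104670984), at 31.6 ± 3.62 and 25.9 ± 4.11 in WT control and stimulated and 17.6 ± 2.11 and 14.6 ± 7.26 in KO (-0.44 ± 0.12, adjusted p = 0.046). Its call was lost when any single library other than KO IL-12/18 replicate 1 was left out, with an adjusted p of up to 0.121.

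The number of genotype calls turned on KO IL-12/18 replicate 1. Without that library 8 member regions passed, 6 lower and 2 higher in KO, and 12.9% of all ranked regions passed, against 4.3% with it. These were the 2 above, 3 at Rptor, 2 at Slc2a1 and 1 at Slc16a3. The largest was a Rptor region (chr11:119813620-119814714), at a mean percentile of 21.9 and 14.4 in WT control and stimulated and 5.81 and 1.43 in KO (-0.96 ± 0.16, limma, adjusted p = 0.000646). At Slc2a1 the region upstream (chr4:119098096-119099276) differed by -0.58 ± 0.10 (adjusted p = 0.000842) and the one at 17.6 kb by -0.26 ± 0.06 (adjusted p = 0.00832). The Slc16a3 region (chr11:120950235-120951636) was higher in KO, by 0.37 ± 0.08 (adjusted p = 0.00406). For stimulation, 23 of 36 testable member regions passed the call test without this library, against 17 of 32 with it. Over all testable regions the shares were 60.3% and 59.7%. In the rank test 48 of 87 member regions passed without it, against 34 of 80 with it. Over all ranked regions the share also went up, to 51.4% from 42.2%.

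Whether the response to IL-12/18 differed between genotypes was tested as an interaction in limma. No member region of 80 passed, where 0.019% of all ranked regions did, and the smallest adjusted p was 0.522. At an unadjusted p under 0.05 there were 2 of the 80, both at Hk3: the region at 3.2 kb (0.95, unadjusted p = 0.00855) and that at the start (0.63, unadjusted p = 0.0172). The share over all ranked regions at this threshold is not given, and neither region is taken as differing in response. The call test has no interaction form here.

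Other genes of these pathways also changed in both directions. Their counts are to be read against the shares over all regions, which were 33.8% of testable calls gained and 25.9% lost, and 20.1% of ranked regions risen and 22.1% fallen. Of 30 other genes of glucose metabolism, 20 had a region. Among their regions, 4 of 10 testable calls became more frequent and none less, and 7 of 30 ranked regions rose and 7 fell. The most changed were Pdp1, a pyruvate dehydrogenase phosphatase, with 3 rises and 1 fall by rank, and Galm (aldose mutarotase) and Pgm2 (phosphoglucomutase). Of 10 regulators and partners of the hypoxia factor, all had regions, with 1 call more and 1 less frequent of 6, and 2 rises and 5 falls of 17 ranked. Ddit4, an mTORC1 inhibitor induced by stress, had 2 rises and 1 fall, and Bnip3, a mitophagy receptor, had 2 falls.

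In 17 other amino acid transporter and polyamine genes, 4 of 11 testable calls were gained and 2 lost, and 7 of 30 ranked regions rose and 5 fell, which lies near the shares over all regions for ranks (20.1% and 22.1%). The cystine carrier Slc7a11 gained 2 calls and lost 1, the spermine synthase gene Sms gained 2 calls and 1 rise, and the antizyme inhibitor gene Azin1 and the glutamine carrier Slc38a1 had 2 changes each. Of 15 sterol factor partners and lipid genes, 4 of 6 testable calls were gained and none lost, and 2 of 26 ranked regions rose and 1 fell. These included Insig1, which retains the sterol factors in the endoplasmic reticulum, and the lipid synthesis genes Acly and Fasn.

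The list of 34 other mTOR pathway genes was the longest, with 54 ranked regions. Of these 18 fell and 4 rose, where the shares of all ranked regions were 22.1% and 20.1%, with a median difference of -0.16 against -0.07 over all ranked regions, and 5 of 14 testable calls were gained and 4 lost. Tfeb, a lysosomal factor held in the cytoplasm by mTORC1, lost 2 calls and had 3 falls with no gain. The kinase gene Akt2 had 2 rises and 1 lost call, Mapkap1, an mTORC2 subunit, 2 gained calls and 1 fall, and Sesn1, an amino acid sensor of the pathway, 1 gained call, 1 rise and 1 fall. No test compared these lists with each other or with the members.

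In these bulk libraries, fewer cells with an open region and less opening in each cell cannot be told apart. Neither the part of list stringency nor that of KO IL-12/18 replicate 1 in these differences was tested beyond the values given.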

How the data were processed

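The authors deposited 1 narrowPeak list for each of the 12 libraries, each with its own peaks. Per the submitters' processing notes, the build was mm10 and the tools were MACS2 (2.1.1.20160309), Bowtie2 (2.3.4.1), deepTools (3.4.2), cutadapt (4.1), FastQC (0.11.9) and SAMtools (1.15.1), without settings. A shift of reads for the transposase is neither named nor denied there. The deposited fold is a ratio to the library's own background, and the deposited -log10 q belongs to a single peak. Both ordered intervals identically within each library.

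Summits sharing an interval were taken as 1 interval with the strongest value, on chromosomes 1 to 19, X and Y. The 35110 strongest per library were merged at 1 bp overlap, and a region was used if 2 or more libraries called it. Gene bodies came from RefSeq (GRCm38.p6), without exons. Tests were the exact conditional permutation test (two-sided) and limma 3.58.1 with a mean-variance trend (R 4.3.3; Python 3.11.15), with Benjamini-Hochberg adjustment over the genome at 0.05. Both were tested on simulated data.

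Named were members with a region passing any of the 5 tests, the 5 with most regions, the others by role and number, and up to 4 genes per related list. Members and lists were chosen with earlier results of these data known. Alternatives changed list length, threshold, overlap, region definition, distance, moderation, replicate block and libraries.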

Additional observations from a re-analysis of the deposited data

How the results depend on the processing

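For stimulation, 17 of 32 testable member regions passed the call test, against 59.7% of all testable regions. These became 1 of 35 with every deposited interval (12.4% of all) and 3 of 34 with a -log10 q of at least 5 (13.3%). With a replicate block 6 of the 7 still testable passed (96.2% of all). The passing member calls stayed between 14 and 25 under the other 5 alternatives, with shares over all testable regions of 49.9% to 68.6%. The 12 higher and 5 lower became 7 and 7 with lists of 50% of the length, and 15 and 10 where calls had to cover 50% of a region. Leaving out 1 library gave 18 to 25, with shares over all of 51.0% to 60.3%. The 34 rank changes of 80 ranked member regions (42.2% of all ranked regions passed) became 15 of 47 (12 higher, 3 lower) with lists of 50% of the length (30.5%). They lay between 32 and 46 otherwise, with shares over all of 41.6% to 45.1%. With 1 library left out they lay between 26 and 48, with shares over all of 37.0% to 51.4%. Of the named regions, 17 of 17 calls and 23 of 34 rank changes held without each library in turn, and none changed direction. For genotype, the 2 rank changes became 5 with every deposited interval, 0 with lists of 50% of the length, 3 with the block or without the trend, and 1 to 8 with 1 library left out. Over all ranked regions 4.3% passed in the main setting, 5.09% with every deposited interval and 1.49% with the shorter lists. With 1 library left out that share was 2.04% to 12.9%. Genotype calls and interactions among the members were 0 throughout. With the replicate block, however, no member region was testable for genotype calls, and 64.0% of all testable regions passed. The 0 under that setting is therefore not a result about the members.

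The stimulated minus control difference of 3.5 called regions became 16 with every deposited interval, -3.33 with lists of 50% of the length, -2.17 with calls covering 50% of a region and 6.17 with 20 kb in place of 50 kb, and 2.5 to 4.42 with 1 library left out. The cause was not tested, except that under the block only 64 rearrangements remain and p cannot go below 0.03125. Same-numbered libraries correlated at -4e-05 to 0.191, above 0.1 in 5 of 12 pairs, so the numbers were not treated as pairs. Ranking by deposited fold gave the same ranks.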
